A study of Mus musculus with 96 samples.

Results

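Umod, Wfdc15b, Ppp1r1a, Klk1, Spp1, Wfdc2 and Muc1, a set named for abundant secreted and luminal proteins of the thick ascending limb and the distal convoluted tubule, were followed along the whole mouse nephron. They are 7 of the 54532 genes in the deposited table, found there by their symbols, and all 7 passed the filter on low values. They were chosen by their mRNA levels in those segments, so levels there are given as a description, without a test. Glomeruli and 14 tubule segments had been dissected by hand from kidneys of male C57BL/6 mice aged 6 to 8 weeks, with no treatment or genetic change named in the labels. The 93 samples make 53 mice when mouse numbers are counted within each segment; up to 3 pieces of 1 mouse and segment were averaged, and whether a number marks the same animal in different segments is not stated.

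GL stands for the glomerulus. PTS1 is the first convoluted stretch of the proximal tubule, PTS2 its straight stretch within the cortex and PTS3 the last straight stretch. DTL1 is the descending thin limb of short loops, DTL2 and DTL3 that of long loops in the outer and then the inner medulla, and ATL the thin limb that ascends. MTAL and CTAL are the thick ascending limb in medulla and cortex, DCT is the distal convoluted tubule and CNT the connecting tubule. CCD, OMCD and IMCD are the collecting duct at its cortical, outer medullary and inner medullary levels. PTS2, CTAL and CCD had 5 mice, ATL and OMCD 4, and the other groups 3. Levels are TPM, an abundance corrected for transcript length that sums to the same total in every sample and keeps no read depth. Values are means ± SD over mice unless single mice are given, and n is the number of mice just stated. In dissected tubules, fewer cells of a type and less RNA per cell cannot be told apart.

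Of the 7 gene products, uromodulin (Umod) is a membrane-anchored protein that is cleaved from the thick limb surface and polymerises in the urine. Osteopontin (Spp1) is a secreted phosphoprotein that binds calcium crystals and integrins, tissue kallikrein (Klk1) is a secreted serine protease that frees kinins from kininogen, and Wfdc2 and Wfdc15b encode secreted proteins of the whey acidic protein family. Muc1 encodes a mucin that spans the apical membrane, and Ppp1r1a encodes inhibitor-1, which blocks protein phosphatase 1 after phosphorylation by protein kinase A. Inhibitor-1 works inside the cell, so Ppp1r1a is not a secreted or luminal product.

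The labels of the segments that matter most here were checked against marker genes. The 3 thick limb markers, Slc12a1, Cldn16 and Ptger3, summed to 4303 to 5923 TPM in MTAL and 6340 to 8516 TPM in CTAL. They also summed to 308 to 771 TPM in ATL, where Cldn16 alone was at 570 ± 193 TPM, and to at most 97.5 TPM in any mouse of the other groups. The 3 distal convoluted tubule markers, Slc12a3, Pvalb and Trpm6, summed to 5916 to 6447 TPM in DCT and to at most 19.3 TPM in any mouse of the other groups. The number of genes at 1 TPM or more was 26044 to 28161 in DTL1 and 22718 to 28151 in GL, against 11239 to 13832 in PTS1, PTS2, PTS3, MTAL, CTAL, DCT, CNT, CCD and IMCD. It was 22250 to 23247 in DTL3, 19270 to 20245 in DTL2 and 16872 to 20356 in OMCD. In ATL it ran from 13532 to 24647, with mice 4 and 6 high and mice 2 and 3 low. Without ATL mice 4 and 6, DTL3 minus ATL by limma was 4.69 log2 units for Umod, 3.35 for Spp1, -7.64 for Wfdc15b, -7.56 for Ppp1r1a and -4.66 for Muc1. These 5 differences were called with and without those mice, while Wfdc2 was called without them but not with them, and Klk1 was called in neither case.

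Sequences upstream of the start sites are shown for 5 of the genes because each holds a short motif of a factor family known in kidney epithelium or a TATA box. The sequences are from RefSeq (GRCm38.p6), 250 bases ending just before the start, 5′ to 3′ on the gene's own strand, with motif matches in capitals; 6 of the 7 genes have an entry, and the first listed start was used for Spp1 and Wfdc2, which have 2 each. The Wfdc2 window held none of the 4 motifs searched. Motifs were searched on both strands, and no 2 matches overlapped. Umod lies at chr7:119479263-119479512 on the minus strand, Spp1 at chr5:104434861-104435110 on the plus strand, Wfdc15b at chr2:164221664-164221913 on the minus strand, Klk1 at chr7:44225110-44225359 on the plus strand and Muc1 at chr3:89228806-89229055 on the plus strand.
Umod: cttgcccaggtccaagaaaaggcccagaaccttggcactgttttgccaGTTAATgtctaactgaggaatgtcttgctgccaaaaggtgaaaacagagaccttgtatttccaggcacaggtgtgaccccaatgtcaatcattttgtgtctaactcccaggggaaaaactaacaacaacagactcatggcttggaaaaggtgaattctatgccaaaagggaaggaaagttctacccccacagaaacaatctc
Spp1: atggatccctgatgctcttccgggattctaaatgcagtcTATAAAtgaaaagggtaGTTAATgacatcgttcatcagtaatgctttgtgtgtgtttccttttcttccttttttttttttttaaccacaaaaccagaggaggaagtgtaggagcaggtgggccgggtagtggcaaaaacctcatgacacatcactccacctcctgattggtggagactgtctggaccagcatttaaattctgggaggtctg
Wfdc15b: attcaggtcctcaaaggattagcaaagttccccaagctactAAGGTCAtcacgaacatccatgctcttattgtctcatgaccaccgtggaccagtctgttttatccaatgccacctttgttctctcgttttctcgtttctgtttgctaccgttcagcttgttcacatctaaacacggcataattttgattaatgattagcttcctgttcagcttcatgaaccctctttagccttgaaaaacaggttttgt
Klk1: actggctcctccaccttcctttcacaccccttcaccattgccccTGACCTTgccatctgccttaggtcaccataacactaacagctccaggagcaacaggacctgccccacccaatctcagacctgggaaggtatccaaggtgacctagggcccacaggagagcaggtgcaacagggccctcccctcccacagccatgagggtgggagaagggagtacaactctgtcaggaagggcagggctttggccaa
Muc1: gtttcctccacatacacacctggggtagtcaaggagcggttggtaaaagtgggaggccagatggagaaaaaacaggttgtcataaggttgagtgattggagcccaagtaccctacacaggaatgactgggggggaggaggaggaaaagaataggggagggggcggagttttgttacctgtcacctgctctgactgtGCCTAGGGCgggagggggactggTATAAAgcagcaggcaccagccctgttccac

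The short homeodomain motif GTTAAT was found in Umod, 202 to 197 bases before the start, and in Spp1, 194 to 189 bases before it. It occurs in 6.43% of all 32851 windows of this length. The oestrogen-related receptor motif AAGGTCA lay 209 to 203 bases before the start of Wfdc15b and, on the other strand, 206 to 200 bases before that of Klk1, and 4.08% of windows hold it. The AP-2 motif GCCNNNGGC was found only in Muc1 among these genes, 54 to 46 bases before the start, with a TATAAA box 31 to 26 bases before it. Spp1 holds a TATAAA 211 to 206 bases before the start. The AP-2 motif occurs in 13.7% and TATAAA in 12.4% of windows. The Wfdc2 window held none of the 4 motifs. A match is a run of letters and was not tested as a binding site.

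The 7 genes together took 6.68 ± 0.239% of all TPM in CTAL, 6.65 ± 0.645% in DCT and 3.96 ± 0.382% in MTAL. DTL2 followed with 2.75 ± 0.486%, nearly all of it from Spp1 alone at 2.66 ± 0.460%. CNT reached 1.07 ± 0.159%, every other group stayed at or below a mean of 0.342%, and PTS3 had the least, 0.00187 ± 0.0000749%. All 7 genes had a mean of at least 100 TPM in CTAL, 6 of 7 in MTAL, DCT and CNT, and 0 of 7 in GL, PTS2 and PTS3. The composition differed by segment. Umod made up more than any other member in MTAL and CTAL, Klk1 took 4.88 ± 0.584% of all TPM in DCT, and Muc1 was the most abundant of the 7 in IMCD and ATL.

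**Figure D1:**
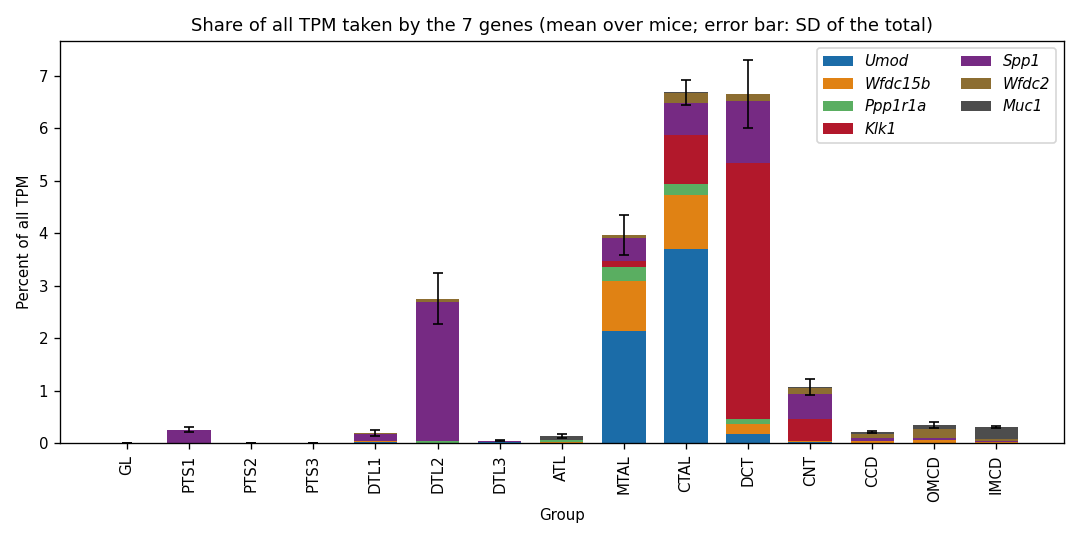
Percent of all TPM (vertical axis) taken by the 7 genes in each of the 15 groups (horizontal axis), stacked by gene as means over mice, with the SD of the total as the error bar. CTAL and DCT stand highest at 6.68% and 6.65%, and the DTL2 bar of 2.75% is almost wholly Spp1.

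Umod (ENSMUSG00000030963) was the most abundant of all genes in CTAL and at rank 3 in MTAL. Its 5 CTAL mice had 37724, 34039, 38229, 36877 and 37796 TPM and its 3 MTAL mice 21183, 24554 and 17892 TPM. In DCT the mice had 2170, 1359 and 1848 TPM, 4.85% of the CTAL mean. The mice of these 3 groups did not overlap, and MTAL, CTAL and DCT held 98.8% of the sum of Umod's 15 group means. Within a mouse, Umod stood at 5.19 ± 0.312 times the cotransporter gene Slc12a1 in MTAL and 6.10 ± 0.810 times in CTAL.

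Outside these segments Umod was found at moderate levels in DTL3, DTL1 and CNT. DTL3 had 253, 188 and 329 TPM in mice 1, 2 and 3, and Slc12a1 in the same mice was 1.80, 0.380 and 0.544 TPM. DTL1 had 393, 290 and 73.0 TPM in mice 1, 3 and 5, where Slc12a1 was 1.63, 2.77 and 7.99 TPM. DTL3 and DTL1 overlapped each other and DTL1 overlapped CNT (137 ± 35.2 TPM), while DTL2 lay at 16.5 ± 5.13 TPM and ATL at 9.36 ± 5.71 TPM. The 3 thick limb markers summed to 1.62 to 4.01 TPM in DTL3, with 1 of 3 at a mean of 1 TPM or more, and to 7.51 to 9.22 TPM in DTL1, with 2 of 3; their part in the Umod level was not tested. The pieces from DTL2 mouse 3 differed in Umod by 3.81 log2 units, the largest gap between pieces for any of the 7 genes among mice at 10 TPM or more, against a median of 0.298 for Umod.

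Differences between neighbouring groups were tested with limma on log2(TPM + 1) over all 32879 genes that passed the filter, with Benjamini-Hochberg adjustment. A gene was called at an adjusted p under 0.05 and a difference of at least 1 log2 unit, a doubling. For the 7 genes only the 11 comparisons without MTAL, CTAL and DCT count as tests. They share groups and mice, so they are not independent of each other. Of the 77 results, 50 were called, 22 higher in the first group of the comparison and 28 higher in the second, against 23.8% of all gene and comparison pairs. Abundant genes are called more often: the share was 43.8% among genes with a highest group mean of at least 1000 TPM, the range all 7 belong to. Umod had 10 of its 11 results called, Spp1 9, Wfdc15b 8, Wfdc2 and Muc1 7 each, Ppp1r1a 5 and Klk1 4.

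**Figure D2:**
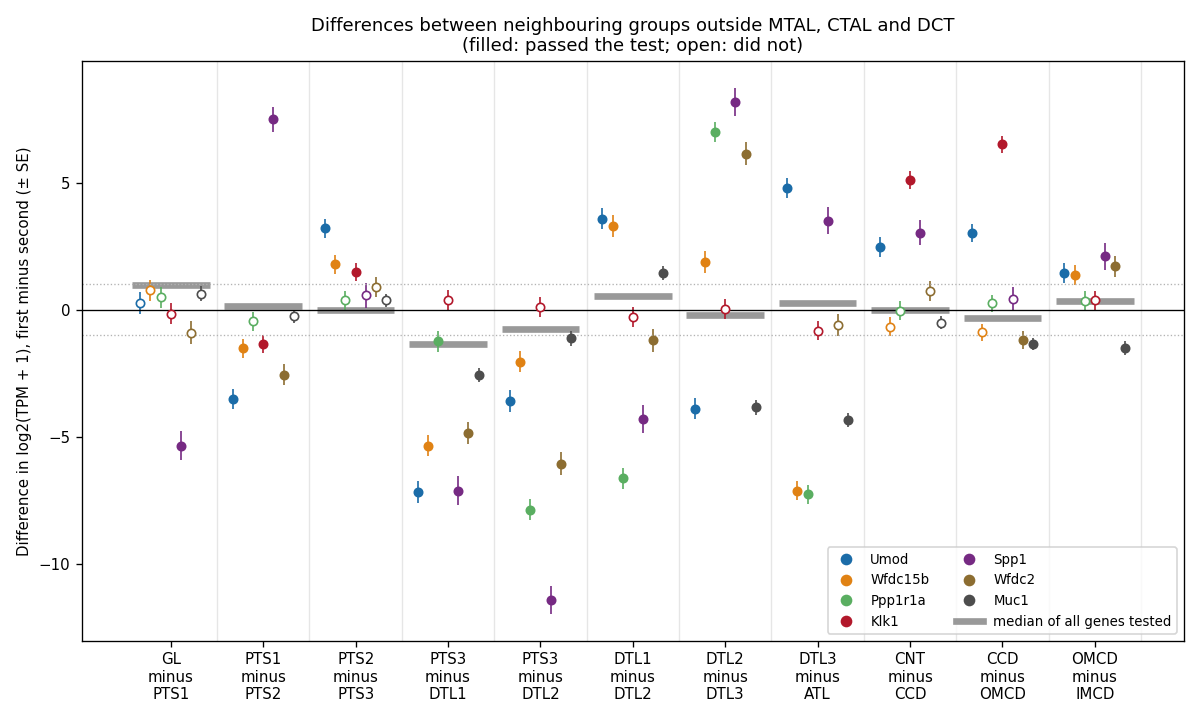
Difference in log2(TPM + 1) ± SE for the 7 genes (colours) in the 11 comparisons outside MTAL, CTAL and DCT, first group minus second; filled points passed the test and grey bars give the median over all 32879 genes. Spp1 reached from -11.42 for PTS3 minus DTL2 to 8.18 for DTL2 minus DTL3, while Klk1 was called on both sides of CCD and of PTS2.

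Umod differed between the thin limbs. It was 3.59 log2 units higher in DTL1 than in DTL2 (SE 0.43, adjusted p 6.42e-09 by limma), rose from DTL2 to DTL3 (DTL2 minus DTL3 -3.89, SE 0.43, adjusted p 1.26e-09) and fell from DTL3 to ATL by 4.79 (SE 0.40, adjusted p 2.22e-13). No mouse of one group overlapped the other in any of these 3 comparisons, and none of the 3 calls was lost when any 1 mouse was left out. Of the 7 genes, 6 were called between DTL1 and DTL2, 3 higher in each, where 28.7% of all genes were called and 89.3% of all calls were higher in DTL1. Under quantile normalization 44.0% of all calls were higher in DTL1 and 4 of the 7 genes were called, 2 higher in each, without Wfdc2 (-1.26, adjusted p 0.0558 by limma) and Muc1 (0.42, adjusted p 0.383). Between DTL2 and DTL3, 6 were called against 9.83% of all genes, 4 higher in DTL2 and 2 in DTL3. Of all calls there 36.6% were higher in DTL2, 51.4% after median ratio rescaling and 56.7% under quantile normalization. Wfdc15b (1.88) was not called there with a pseudocount of 5 (0.93, adjusted p 0.0538 by limma) or with only these 2 groups fitted (adjusted p 0.105). Between DTL3 and ATL 5 were called, 2 higher in DTL3, where 12.1% of all genes were, and 3 higher in ATL, where 2.93% were. The share of calls higher in DTL3 was 80.5%, 65.3% after median ratio rescaling and 57.4% under quantile normalization, with 2 of the 7 genes higher in DTL3 and 3 in ATL each time. Median differences over all genes were 0.55, -0.20 and 0.28, smaller than each of the Umod values. Distally, Umod fell from CNT to CCD by 2.47 (SE 0.38, adjusted p 3.09e-05 by limma), from CCD to OMCD by 3.03 (SE 0.35, adjusted p 6.63e-09) and from OMCD to IMCD by 1.46 (SE 0.40, adjusted p 0.00349). Both OMCD and IMCD means were then under 3 TPM, and the last call was lost with a pseudocount of 5 (0.53, adjusted p 0.237 by limma) and under quantile normalization (0.84, adjusted p 0.249). The 3 thick limb markers summed to 71.4 to 73.0 TPM in CNT, 23.8 to 37.0 TPM in CCD and 3.39 to 6.48 TPM in OMCD. In these groups Ptger3 was at 64.4, 25.5 and 1.21 TPM, whereas Slc12a1 was at 1.01, 2.84 and 0.422 TPM. The part of these markers in the distal Umod differences was not tested.

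Wfdc15b (ENSMUSG00000018211) was nearly level along the thick limb. MTAL mice had 9857, 8932 and 10140 TPM and CTAL mice 10691, 10754, 10482, 9684 and 10029 TPM, which overlapped. DCT mice had 2472, 1290 and 1865 TPM, below every thick limb mouse. Unlike Umod, the gene stayed at 178 ± 26.8 TPM or more in every segment from CNT to IMCD. Umod over Wfdc15b within a mouse was 3.58 ± 0.258 in CTAL, 2.22 ± 0.496 in MTAL, 0.974 ± 0.0892 in DCT, 0.767 ± 0.136 in CNT and 0.0850 ± 0.0182 in CCD.

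In the collecting duct the 4 OMCD mice had 530, 488, 522 and 543 TPM of Wfdc15b, above all CCD mice (257 to 318 TPM) and all IMCD mice (286, 140 and 203 TPM). The step from CCD to OMCD missed the size threshold (-0.88, SE 0.34, adjusted p 0.0480 by limma). The fall from OMCD to IMCD was called (1.37, SE 0.39, adjusted p 0.00550 by limma), but not without IMCD mouse 2 (1.11, adjusted p 0.0555). In the loop, Wfdc15b was 0, 0 and 0.942 TPM in DTL3 and 202, 306, 59.3 and 237 TPM in ATL mice 2, 3, 4 and 6. The ATL rise was called (DTL3 minus ATL -7.12, SE 0.39, adjusted p 2.69e-19 by limma), and the ATL mice are all above the DTL3 mice. The thick limb markers moved with it, summing to 1.62 to 4.01 TPM in DTL3 and 308 to 771 TPM in ATL. Most of the ATL sum was Cldn16, at 570 ± 193 TPM. Ptger3 was at 1.71 ± 0.669 TPM in DTL3 and 36.4 ± 15.6 TPM in ATL. Slc12a1 was at 0.908 ± 0.777 TPM in DTL3 and 10.3 ± 10.8 TPM in ATL. The part of these markers in this rise, and in those of Ppp1r1a and Muc1 between the same groups, was not tested.

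Ppp1r1a (ENSMUSG00000022490) ended abruptly at the end of the DCT. MTAL mice had 2461, 2572 and 2809 TPM, CTAL mice 1868, 2185, 2101, 2018 and 1945 TPM and DCT mice 964, 840 and 851 TPM. In CNT they had 0.310, 1.71 and 0.320 TPM. The 3 upstream groups did not overlap each other, and the gap between the DCT and CNT means of log2(TPM + 1) was 9.05, the widest of the 7 genes at that border. Wfdc2, for comparison, had overlapping mice in DCT and CNT.

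Ppp1r1a was also present in 2 thin limb segments that are not neighbours. DTL2 mice had 395, 174 and 390 TPM and ATL mice 524, 373, 273 and 320 TPM, which overlapped. DTL1 mice had 1.65, 9.52 and 0 TPM and DTL3 mice 2.37, 0.410 and 1.75 TPM. The gene was higher in DTL2 than in DTL1 (DTL1 minus DTL2 -6.63, SE 0.41, adjusted p 3.66e-17 by limma), fell from DTL2 to DTL3 by 6.99 (SE 0.41, adjusted p 5.77e-18) and rose from DTL3 to ATL (DTL3 minus ATL -7.27, SE 0.38, adjusted p 4.90e-20). Each of these 3 calls held with any 1 mouse left out, and that of ATL also without ATL mice 4 and 6. The call between PTS3 and DTL1 (-1.24, adjusted p 0.00558 by limma) did not hold: without DTL1 mouse 3, the mouse with 9.52 TPM, it was -0.34 (adjusted p 0.366), and under quantile normalization it turned to 0.18 (adjusted p 0.724). In all 10 groups other than DTL2, ATL, MTAL, CTAL and DCT the mean stayed under 10 TPM.

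Klk1 (ENSMUSG00000063903) was the most abundant of all genes in DCT, with 44344, 55330 and 46292 TPM in the 3 mice. CTAL mice had 7868 to 10895 TPM with a median of 8767, and MTAL mice 917, 1391 and 808 TPM. CTAL stood 8.89 times above MTAL and DCT 5.27 times above CTAL as a ratio of means, with no overlap between mice. Genes of the kallikrein cluster are close copies that can share reads, so each level is uncertain to that extent.

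Beyond the DCT, Klk1 declined stepwise. CNT mice had 4266, 3450 and 4895 TPM, CCD mice 114, 121, 256, 71.4 and 98.5 TPM, and OMCD mice 0.264, 0.120, 0.517 and 0.443 TPM. It fell from CNT to CCD by 5.10 (SE 0.36, adjusted p 2.19e-14 by limma) and from CCD to OMCD by 6.51 (SE 0.33, adjusted p 3.59e-20), with no overlap and no loss of either call on leaving out any 1 mouse. Between CNT and CCD 3 of 7 genes were called, all higher in CNT, where 1.15% of all genes were called and 0.453% were higher in CNT; between CCD and OMCD it was 4 of 7, 2 higher in each, against 12.5%. The share of calls higher in CNT than in CCD was 39.3%, 49.1% after median ratio rescaling and 58.3% under quantile normalization, and that higher in CCD than in OMCD was 14.3%, 19.8% and 56.2%. The 3 distal convoluted tubule markers summed to 1.65 to 2.80 TPM in CNT, and Slc12a3 itself was 0.127, 0.789 and 0.0400 TPM in the 3 CNT mice. The intercalated cell markers went different ways from CCD to OMCD. Slc26a4 was lower in OMCD, at 1767 ± 361 TPM in CCD and 3.91 ± 4.26 TPM in OMCD. Atp6v1g3 and Foxi1 were lower to a smaller extent, whereas Slc4a1 was higher. The 4 markers summed to 3242 to 4424 TPM in CCD and 2118 to 2862 TPM in OMCD, and their part in the Klk1 step was not tested. Without CCD mouse 3, which had 256 TPM, the CCD mice lay between 71.4 and 121 TPM.

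At the proximal end, Klk1 was called between PTS1 and PTS2 (-1.36, adjusted p 0.00317 by limma) and between PTS2 and PTS3 (1.48, adjusted p 0.00200), with a PTS2 mean of 3.70 ± 2.24 TPM. The first call was lost without PTS1 mouse 2 (-1.08, adjusted p 0.0646) and the second without PTS3 mouse 2 (1.16, adjusted p 0.0547), and both were lost with a pseudocount of 5 (-0.58, adjusted p 0.0648, and 0.57, adjusted p 0.0901). With only PTS2 and PTS3 fitted the second had an adjusted p of 0.156, and at these levels neither is more than a few TPM. From DTL3 to ATL, Klk1 was not called (-0.82, adjusted p 0.0916) but was without ATL mouse 4 (-1.08, adjusted p 0.0228), with group means of 0.456 and 1.70 TPM.

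Spp1 (ENSMUSG00000029304) was not highest in the thick limb or the DCT. It was the most abundant of all genes in DTL2, with 27855, 21107 and 29697 TPM, and every DTL2 mouse was above every mouse of any other group. DCT followed with 10130, 13451 and 11993 TPM, then CTAL with 5869 to 6450 TPM, CNT with 4698, 3905 and 5719 TPM and MTAL with 3632, 5423 and 3971 TPM. DTL2, DCT and CTAL did not overlap one another, while CNT and MTAL did. MTAL, CTAL and DCT held 38.0% of the sum of its group means.

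The long descending limb showed the steepest change of any of the 7 genes. DTL1 mice had 1870, 883 and 1374 TPM, DTL3 mice 264, 25.0 and 104 TPM and ATL mice 1.35, 31.8, 3.05 and 11.5 TPM. Spp1 rose from PTS3 to DTL2 (PTS3 minus DTL2 -11.42, SE 0.56, adjusted p 1.37e-21 by limma), against a median over all genes of -0.74, and 6 of the 7 genes were called there, all higher in DTL2, where 41.2% of all genes were called and 37.2% were higher in DTL2. The share of calls higher in PTS3 was 9.62%, 27.0% after median ratio rescaling and 48.5% under quantile normalization, with 5 and 4 of the 7 genes called. The endothelial markers Pecam1, Kdr and Emcn moved the same way, summing to 14.0 to 44.4 TPM in PTS3 and 273.7 to 424.8 TPM in DTL2, and their part was not tested. Wfdc15b (-2.05) was not called there under quantile normalization (-0.93, adjusted p 0.112 by limma) or with a pseudocount of 5, where it fell short in size. Spp1 fell from DTL2 to DTL3 by 8.18 (SE 0.56, adjusted p 1.37e-15), and DTL1 was lower than DTL2 (-4.30, SE 0.56, adjusted p 5.47e-08). From DTL3 to ATL it fell by 3.50 (SE 0.53, adjusted p 8.36e-07 by limma), but the mice of those groups overlapped and the call was lost when only these 2 groups were fitted (adjusted p 0.153).

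Spp1 was also high at the start of the proximal tubule and low in its next stretch. PTS1 mice had 2477, 2060 and 3174 TPM, whereas PTS2 mice had 8.86 to 21.1 TPM and GL mice 44.1, 68.8 and 74.2 TPM. The difference was 7.50 between PTS1 and PTS2 (SE 0.50, adjusted p 1.50e-16 by limma) and -5.35 for GL minus PTS1 (SE 0.56, adjusted p 3.02e-11). Spp1 was the only 1 of the 7 genes called between GL and PTS1, where 53.3% of all genes were called and 4.94% were higher in PTS1. Wfdc2 (-0.91, adjusted p 0.0630 by limma) was also called under median ratio rescaling (-1.43, adjusted p 0.00585), under quantile normalization (-1.73, adjusted p 0.00403) and with a pseudocount of 0.1 (-2.45, adjusted p 0.000834). With that pseudocount Wfdc15b (1.83, adjusted p 0.00547 by limma) and Muc1 (1.48, adjusted p 0.00108) were called in the other direction, higher in GL. Median ratio rescaling moved the Spp1 mean in PTS1 from 2570 to 4134 TPM. Of all calls between GL and PTS1, 90.7% were higher in GL, against 69.0% after median ratio rescaling and 47.3% under quantile normalization. Between PTS1 and PTS2, 5 of 7 were called against 9.85%. Of these, Spp1 alone was higher in PTS1 (4.60% of all genes) and 4 were higher in PTS2 (5.25%). The share of calls higher in PTS1 was 46.7%, and 67.2% after median ratio rescaling. Wfdc15b (-1.52) was not called with a pseudocount of 5 (-0.57, adjusted p 0.314 by limma), and Ppp1r1a was under quantile normalization (-1.21, adjusted p 0.00252). The 3 thick limb markers summed to 6.31 to 10.4 TPM in PTS1; their part in the level was not tested. In the collecting duct Spp1 fell from CNT to CCD by 3.04 (SE 0.50, adjusted p 0.000101 by limma) and from OMCD to IMCD by 2.10 (SE 0.53, adjusted p 0.00147).

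Wfdc2 (ENSMUSG00000017723) was the most evenly spread of the genes along the distal nephron. CTAL mice had 1873, 2050, 2326, 2024 and 1834 TPM and OMCD mice 1862, 1705, 1345 and 1490 TPM, which overlapped. DCT was at 1241 ± 136, CNT at 1162 ± 25.9, CCD at 699 ± 15.4, MTAL at 586 ± 133, DTL2 at 519 ± 146 and IMCD at 488 ± 46.3 TPM. The 5 CCD mice lay within 681 to 723 TPM. DTL1 mice had 180, 237 and 244 TPM, and the means of GL, the 3 proximal segments, DTL3 and ATL were between 0.300 and 14.0 TPM.

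Wfdc2 did not follow a steady course down the duct. From CNT to CCD the difference was 0.73 (SE 0.40, adjusted p 0.836 by limma), which was not called although the mice did not overlap. It rose from CCD to OMCD (CCD minus OMCD -1.18, SE 0.37, adjusted p 0.0134 by limma) and fell from OMCD to IMCD by 1.70 (SE 0.42, adjusted p 0.00115), with 5 of 7 genes called in the latter comparison against 19.1% of all genes. The share of calls higher in OMCD was 81.8%, 68.2% after median ratio rescaling and 46.0% under quantile normalization, which left 4 of the 7 called. With a pseudocount of 0.1 the rise was not called (-1.18, adjusted p 0.0629). The 4 intercalated cell markers, Atp6v1g3, Slc4a1, Slc26a4 and Foxi1, summed to 3242 to 4424 TPM in CCD, 2118 to 2862 TPM in OMCD and 0.311 to 2.39 TPM in IMCD, where 0 of 4 had a mean of 1 TPM. From CCD to OMCD these markers went different ways, with Slc26a4 at 1767 ± 361 and 3.91 ± 4.26 TPM, Slc4a1 at 496 ± 45.5 and 1581 ± 256 TPM, Atp6v1g3 at 720.3 ± 70.9 and 507 ± 75.4 TPM and Foxi1 at 676 ± 77.1 and 407 ± 36.6 TPM. Their part in these differences, and in those of Klk1, Umod, Spp1, Wfdc15b and Muc1 between the same groups, was not tested.

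In the loop, Wfdc2 fell from DTL2 to DTL3 by 6.14 (SE 0.45, adjusted p 8.56e-15 by limma). The smaller step between DTL1 and DTL2 (-1.20, SE 0.45, adjusted p 0.0250) was lost without DTL1 mouse 1 (-1.06, adjusted p 0.0802), DTL2 mouse 1 (-1.07, adjusted p 0.0835) or DTL2 mouse 3 (-1.06, adjusted p 0.0845). DTL3 and ATL did not differ past the threshold (-0.60, adjusted p 0.296), but without ATL mouse 4, the lowest of the 4 ATL mice in Wfdc2, ATL was higher (-1.34, adjusted p 0.000747), as it was without ATL mice 4 and 6 (-1.13, adjusted p 0.00613).

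Muc1 (ENSMUSG00000042784) ran against the way the group was named. Its 3 highest groups were IMCD with 1884, 2268 and 2506 TPM, OMCD with 786, 1056, 646 and 678 TPM and ATL with 942, 949, 453 and 802 TPM. MTAL, CTAL and DCT stood at 46.9 ± 19.3, 115 ± 14.5 and 61.4 ± 6.91 TPM, together 4.86% of the sum of the group means. IMCD lay above every other mouse, and OMCD and ATL overlapped.

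Muc1 was higher at each lower level of the collecting duct, where Umod was lower. CNT mice had 224, 220 and 199 TPM and CCD mice 321, 286, 296, 345 and 279 TPM, which did not overlap, though this step was not called (-0.50, SE 0.26, adjusted p 0.766 by limma). Muc1 rose from CCD to OMCD (CCD minus OMCD -1.35, SE 0.24, adjusted p 4.37e-05 by limma) and from OMCD to IMCD (OMCD minus IMCD -1.50, SE 0.27, adjusted p 1.90e-05), where it was the only 1 of the 5 called genes higher in IMCD, as were 3.49% of all genes. Relative to the principal cell gene Aqp2, Muc1 was 0.0299 ± 0.00399 in OMCD and 0.0817 ± 0.0155 in IMCD. Aqp2 was at 26752 and 27331 TPM in these groups, whereas the other principal cell markers were lower in IMCD, Aqp3 at 5136 and 371 TPM, Scnn1g at 619.6 and 0.300 TPM and Avpr2 at 1271 and 1009 TPM. In the thin limbs it rose from DTL2 to DTL3 (-3.85, SE 0.29, adjusted p 3.47e-14) and from DTL3 to ATL (-4.34, SE 0.27, adjusted p 2.96e-17). Aqp2 was 1.46 to 25.1 TPM in the ATL mice, and Muc1 was 18.1 to 645 times it there. Another marker of the same list, Avpr2, moved with Muc1, at 16.2 ± 5.43 TPM in DTL3 and 189 ± 56.4 TPM in ATL. The 4 connecting tubule and principal cell markers summed to 2.28 to 3.84 TPM in DTL2, 16.8 to 61.2 TPM in DTL1, 17.5 to 42.2 TPM in DTL3 and 135 to 239 TPM in ATL. From DTL2 to DTL3 the mean of Aqp2 went from 1.32 to 12.5 TPM and that of Avpr2 from 0.881 to 16.2 TPM. The part of these markers in the Muc1 differences between the thin limbs was not tested. The call between PTS3 and DTL2 (-1.12, adjusted p 0.00119, means 0.213 and 1.61 TPM) was lost without PTS3 mouse 1 (-0.99, adjusted p 0.0107), with a pseudocount of 5 (-0.35, adjusted p 0.255) and after median ratio rescaling (-0.80, adjusted p 0.0167), and turned to 0.12 under quantile normalization (adjusted p 0.827). That between DTL1 and DTL2 (1.45) was lost with a pseudocount of 5 (0.74, adjusted p 0.0134 by limma).

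**Figure D3:**
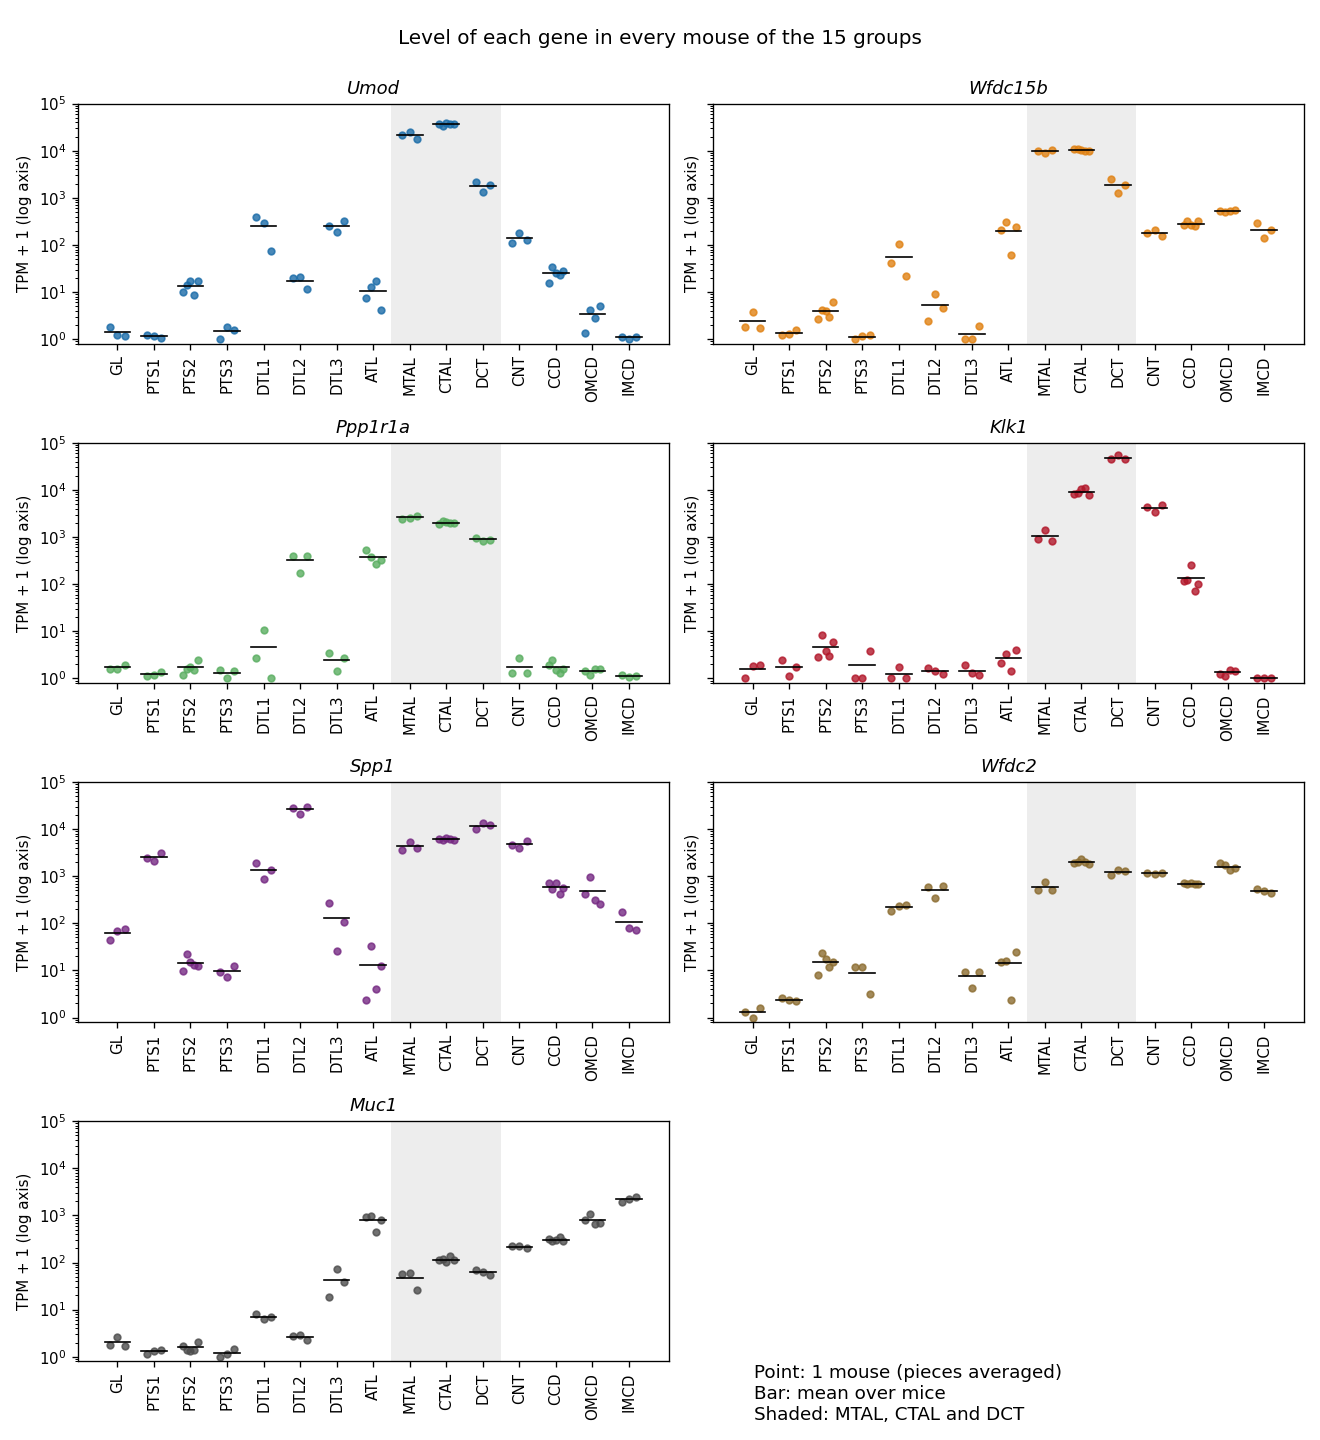
TPM + 1 on a log axis in every mouse (points) of the 15 groups, 1 panel per gene, with bars at the mean over mice and MTAL, CTAL and DCT shaded. Umod, Wfdc15b and Ppp1r1a have their 3 highest groups in the shaded part, Klk1 peaks at 48656 TPM in DCT, Spp1 at 26220 TPM in DTL2 and Muc1 at 2219 TPM in IMCD.

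The remaining proximal comparisons concerned low levels. Between PTS2 and PTS3, 3 of 7 genes were called, against 4.85% of all genes, and all were higher in PTS2, as were 4.07% of all genes: Umod (12.6 against 0.456 TPM), Wfdc15b (3.03 against 0.116 TPM) and Klk1. The Wfdc15b call was lost with a pseudocount of 5 (0.64, adjusted p 0.269 by limma), and Muc1 was called with a pseudocount of 0.1 (1.64, adjusted p 0.000413). The share of calls higher in PTS2 was 83.9%, 60.1% after median ratio rescaling and 63.3% under quantile normalization. Markers of other segments went both ways. Slc12a1 was 1.33 ± 0.411 TPM in PTS2 and 0.00823 ± 0.0143 TPM in PTS3. The 4 connecting tubule and principal cell markers summed to 32.2 to 37.4 TPM in PTS2, with Aqp2 at 5.07 ± 1.07 TPM, and to 0 in PTS3. By contrast, Cldn16 was 0.122 ± 0.0951 TPM in PTS2 and 0.392 ± 0.678 TPM in PTS3, and Slc12a3 was 1.09 ± 0.629 and 2.47 ± 2.44 TPM. The part of these markers was not tested. Umod was also higher in PTS2 than in PTS1 (PTS1 minus PTS2 -3.51, SE 0.38, adjusted p 3.55e-10 by limma), with 7.73 to 16.5 TPM in the 5 PTS2 mice and at most 0.249 TPM in PTS1. Slc12a1 was 0.920 to 1.90 TPM in the PTS2 mice and 0.499 to 0.880 TPM in the PTS1 mice. The sum of the 3 thick limb markers went the other way, at 6.31 to 10.45 TPM in PTS1 and 1.22 to 2.46 TPM in PTS2. Among them Ptger3 was at 7.63 and 0.256 TPM. The part of these markers in the Umod difference was not tested. From PTS3 to DTL1, 6 of 7 genes were called, all higher in DTL1, where 66.8% of all genes were called, 63.0% were higher in DTL1 and the median over all genes was itself -1.36. Umod (-7.17, adjusted p 8.61e-19), Spp1 (-7.12, adjusted p 7.86e-15), Wfdc15b (-5.35, adjusted p 6.30e-15) and Wfdc2 (-4.85, adjusted p 7.57e-13 by limma) lay far past that median and kept their calls under quantile normalization, whereas Muc1 did not (-0.30, adjusted p 0.478). Quantile normalization brought that median to -0.02, and the share of calls higher in PTS3 went from 5.77% to 50.9%; 4 of the 7 genes were then higher in DTL1 and 1, Klk1, higher in PTS3 (1.11, adjusted p 0.0385). DTL1 also carried 740.6 to 804.9 TPM of the 3 endothelial markers Pecam1, Kdr and Emcn, against 14.0 to 44.4 TPM in PTS3 and 273.7 to 424.8 TPM in DTL2. They were at 2700 to 2737 TPM in GL and 11.9 to 32.6 TPM in PTS1, and at 223 to 437 TPM in DTL3 and 40.8 to 86.7 TPM in ATL. The part of these markers in the comparisons between these groups was not tested.

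Genes of the same families and pathways were listed with earlier results of these data known, and 86 of the 105 passed the filter. Counts of listed genes that were highest in given groups are a description. The share of all genes highest in those groups was not determined, so no excess or lack is read from these counts. Over 15 neighbouring comparisons, now including those at MTAL, CTAL and DCT, 359 of 1290 results (27.8%) were called, against 20.3% over all genes. The share called was 57.3% for other abundant urinary proteins, 42.9% for the kinin pathway, 38.3% for zona pellucida domain genes, 28.6% for membrane proteases and their inhibitors, 27.9% for osteopontin relatives, its kinase and receptors, 26.7% for mucins, 24.4% for kallikreins, 21.7% for phosphatase and kinase genes, 21.7% for inherited disease genes and 16.7% for whey acidic protein genes. Among the relatives of the whey acidic protein genes, 12 of 18 passed the filter but 0 of them reached 100 TPM anywhere, and 1, Wfdc1 in GL at 14.4 ± 2.59 TPM, passed 10 TPM. Of the 6 uromodulin relatives, 4 passed the filter. Gp2, whose product also shares the zona pellucida domain and is shed from cell surfaces, was highest in CTAL at 33.2 ± 4.19 TPM and in MTAL at 24.8 ± 10.2 TPM, with DTL3 next at 8.76 ± 3.22 TPM. It rose from DTL2 to DTL3 (DTL2 minus DTL3 -2.49, SE 0.29, adjusted p 3.66e-09 by limma) and fell from DTL3 to ATL by 2.96 (SE 0.27, adjusted p 2.37e-12), the same directions as Umod.

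Of 24 other genes of the kallikrein cluster, 18 passed the filter and 10 reached 10 TPM, 9 of them highest in CTAL or DCT. From DCT to CNT, 11 of 18 were called, all higher in DCT, where 5.37% of all genes were called and 1.56% were higher in DCT. The share of all calls higher in DCT was 29.0%, 46.7% after median ratio rescaling and 45.7% under quantile normalization. The median difference of the 18 genes was 1.32 against -0.02 over all genes. Klk1b5 was 45.8 ± 4.87 TPM in DCT and 15.1 ± 1.20 TPM in CNT, whereas Klk1b21 was 21.1 ± 4.26 TPM in CTAL and 0.886 ± 0.379 TPM in DCT (CTAL minus DCT 3.55, SE 0.19, adjusted p 2.35e-19 by limma). From CTAL to DCT, 7 of 18 were higher in DCT and 1, Klk1b21, higher in CTAL, against 4.47% called over all genes, 2.06% higher in DCT and 2.41% higher in CTAL. From MTAL to CTAL, 9 of 18 were called, all higher in CTAL, against 3.26% of all genes called and 2.65% higher in CTAL. Of all calls there 18.8% were higher in MTAL, 29.4% under quantile normalization. The 10 relatives together amounted to 0.373% of Klk1 in DCT, and how reads are shared among these copies is not known.

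Of the 7 kinin pathway genes, Kng2, a kininogen and so a substrate of kallikrein, reached 4142 ± 193 TPM in CTAL, 2949 ± 95.7 TPM in DCT and 2842 ± 282 TPM in MTAL. It fell from DCT to CNT by 3.17 (SE 0.47, adjusted p 1.66e-06 by limma), and CTAL and DCT did not differ past the threshold (0.49, SE 0.42, adjusted p 1). Ace, which degrades kinins, was highest in PTS2 at 106 ± 14.6 TPM, and Mme, another kinin-degrading peptidase, in OMCD at 179 ± 45.2 TPM. The kinin receptor genes Bdkrb1 and Bdkrb2 did not reach 10 TPM in any group. Of 7 membrane proteases and inhibitors, 0 were highest in MTAL, CTAL or DCT; Hpn, encoding the hepsin that cleaves uromodulin, was highest in PTS2 at 1072 ± 67.4 TPM and next in PTS3, and it stood at 391 ± 13.4 TPM in MTAL. Hpn was higher in MTAL than in ATL (ATL minus MTAL -1.45, SE 0.12, adjusted p 1.76e-13 by limma). Of all genes 28.9% were called there, and 80.7% of these calls were in the other direction, higher in ATL, 72.6% after median ratio rescaling and 43.4% under quantile normalization.

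Among the 10 other mucins, 6 passed the filter and 1 passed 100 TPM. That gene, Muc20, moved with Muc1 in the collecting duct and against it from DTL3 to ATL. Its CCD level was 162 ± 26.9 TPM, its OMCD level 1357 ± 80.0 TPM and its IMCD level 3055 ± 483 TPM, and it rose at both steps (CCD minus OMCD -3.07, SE 0.21, adjusted p 8.18e-16 by limma; OMCD minus IMCD -1.16, SE 0.23, adjusted p 9.88e-05). From DTL3 to ATL it fell by 2.55 (SE 0.23, adjusted p 4.36e-12), where Muc1 rose. In other loop comparisons Muc20 was higher in DTL1 than in PTS3 (-5.52, SE 0.25, adjusted p 8.25e-23 by limma) and DTL2 (4.63, SE 0.25, adjusted p 4.76e-19). It was also higher in DTL3 than in DTL2 (-5.76, SE 0.25, adjusted p 2.94e-22 by limma). Muc1 was called in the same directions in these comparisons. Muc20 was not called between PTS3 and DTL2, where Muc1 was, or between MTAL and CTAL. In ATL, Muc20 stood above MTAL by 4.08 (SE 0.23, adjusted p 4.71e-19 by limma). For Muc1 itself ATL against MTAL was not tested. Muc20 was called higher in DCT than in CTAL, whereas Muc1, not tested there, was at 115 TPM in CTAL and 61.4 TPM in DCT. Of 12 phosphatase and kinase genes, all 12 passed the filter and 9 reached 10 TPM. Of these 9, only Ppp1r1b, which encodes another inhibitor of the same phosphatase, was highest in MTAL, CTAL or DCT. It reached 1274 ± 75.0 TPM in MTAL and 785 ± 88.4 TPM in CTAL and fell from DCT to CNT by 5.09 (SE 0.48, adjusted p 2.43e-11). Across DTL2, DTL3 and ATL it was the reverse of Ppp1r1a, with 399 ± 67.3 TPM in DTL3 against 12.4 ± 7.89 TPM in DTL2 and 4.53 ± 4.08 TPM in ATL, and both steps were called (adjusted p 3.23e-11 and 5.65e-16 by limma). DTL1 did not follow this, since Ppp1r1b was not called between DTL1 and DTL2 (-1.07, SE 0.48, adjusted p 0.0639).

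**Figure D4:**
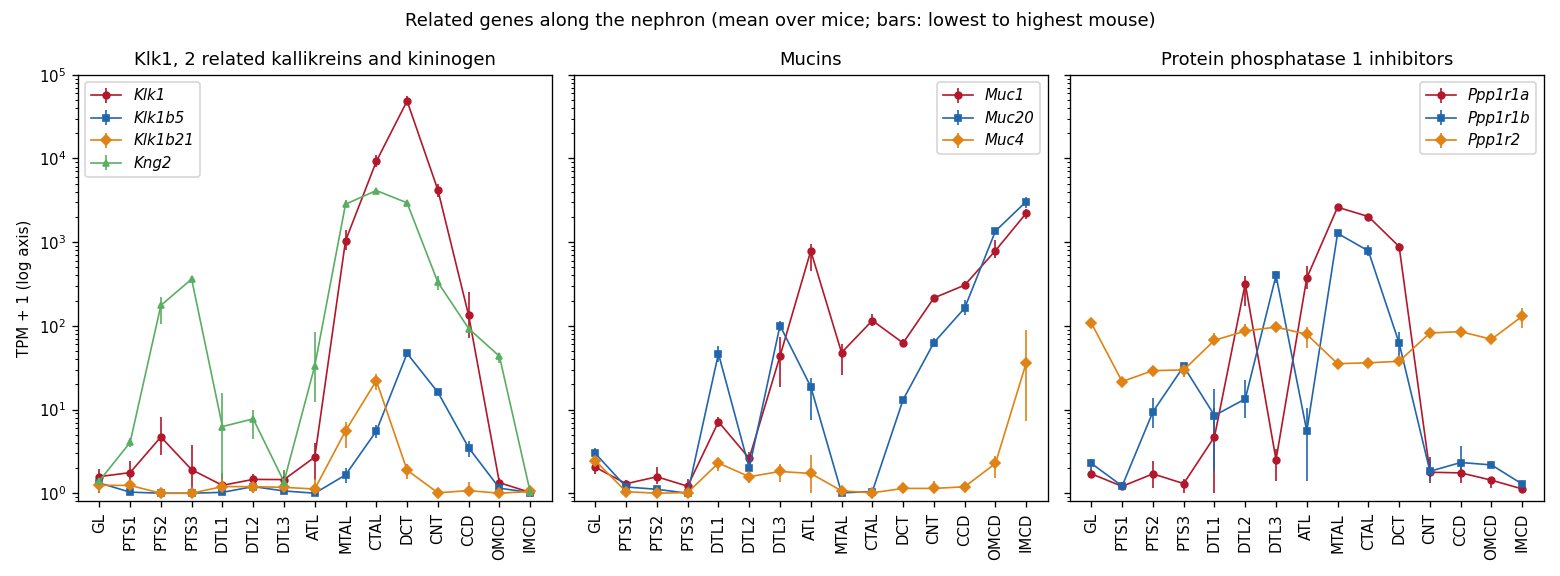
TPM + 1 on a log axis along the 15 groups for Klk1 with 2 related kallikreins and a kininogen gene (left), 3 mucins (middle) and 3 phosphatase inhibitors (right), as means over mice with bars from the lowest to the highest mouse. Ppp1r1a and Ppp1r1b alternate in DTL2, DTL3 and ATL and both drop from DCT to CNT.

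Of 12 genes of osteopontin relatives, its kinase and its receptors, 11 passed the filter, 7 reached 10 TPM and 0 of these 7 were highest in DTL2. Fam20c, which encodes the kinase that phosphorylates secreted proteins such as osteopontin, was 121 ± 28.1 TPM in DTL2, 296 ± 44.1 TPM in DTL3 and 523 ± 102 TPM in IMCD, and the integrin gene Itgav was 123 ± 19.2 TPM in DTL2 and 142 ± 11.5 TPM in GL. Itgav was higher in DTL2 than in DTL1 (DTL1 minus DTL2 -1.98, SE 0.18, adjusted p 1.25e-11 by limma). Of 5 other abundant urinary proteins, 3 were highest in CTAL or DCT. Egf was 16498 ± 2264 TPM in CTAL and fell from there to DCT by 2.61 (SE 0.36, adjusted p 2.43e-07), while Clu rose from 33.2 ± 4.99 TPM in CTAL to 6142 ± 1362 TPM in DCT (CTAL minus DCT -7.48, SE 0.36, adjusted p 1.56e-21). Of 4 other genes of the inherited tubulointerstitial disease for which UMOD and MUC1 are known, 0 were highest in these segments.

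The genes most like each member were ranked by Pearson's r over the 15 group means of log2(TPM + 1) among 11807 genes. This is a description only, since a member and its nearest genes were measured in the same libraries. For Umod the 3 nearest were Repin1 (r = 0.893), Gpx6 (0.889) and Perm1 (0.883), all highest in MTAL. Wfdc15b was nearest to Lnx1 (0.972), followed by Tent5b (0.900) and Cpt1b (0.898). Ppp1r1a was nearest to Esrrb (0.921), Ttyh1 (0.871) and Stk32b (0.834), the last highest in DTL2. Klk1 was nearest to Cwh43 (0.953), its relative Klk1b8 (0.948) and Tmem52b (0.934), all highest in DCT. Spp1 was nearest to Pyurf (0.930), Fbxo44 (0.903) and Sv2a (0.901), Wfdc2 to Rab11fip4 (0.894), Cep19 (0.889) and Tmem213 (0.877), and Muc1 to the vasopressin receptor gene Avpr2 (0.960) and Mal2 (0.944), with the gene in place 3 not reported. Of the 21 nearest genes, 7 were also among the 3 nearest by Spearman's rho, and they were Lnx1, Pyurf, Fbxo44, Rab11fip4, Tmem213, Avpr2 and Mal2.

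Among the 7 genes themselves, r over the 15 group means ran from 0.0307 for Spp1 and Muc1 to 0.794 for Wfdc15b and Wfdc2. The genes were chosen as a group by their levels in 3 of these 15 groups, which builds in a part of the likeness. Both genes of a pair were also measured in the same samples on a common scale.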

How the data were processed

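RNA from hand-dissected segments was made into cDNA libraries with SMARTer V4 and Nextera XT kits, per the labels' protocols. The authors deposited one table of TPM values, and STAR 2.5.4a and RSEM 1.3.0 are named in the submitters' processing notes; the genome build and annotation are not given in the sources used here. Read depth cannot be had from TPM, and the number of mice limits the precision. Of the 93 sample columns, 1 in PTS2 matched no title and entered as an unnumbered mouse; 14 columns of the authors' means and 3 single-cell samples were not used here.

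Log2(TPM + 1) was averaged over the pieces of a mouse, and a mouse's TPM is that mean turned back. Genes with at least 1 TPM in at least 3 mice were kept. limma 3.58.1 in R 4.3.3 was fitted on 15 groups that share one spread, with eBayes and a trend, after a check on simulated data. The named genes are the 7 members, the 3 genes most like each, any gene of the related lists, and segment markers. The members and lists were chosen with earlier results of these data known. Mice are told apart only by the numbers in the titles, so p-values measure the spread between these samples. Alternatives changed the pseudocount, the filter, the scaling, the averaging, the groups fitted and the mice included. Certain genes of the lists and markers are not reported here.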

Additional observations from a re-analysis of the deposited data

Results flagged for a closer look

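Klk1 in CCD was high in 1 mouse. Mouse 3 had 256 TPM, and the other 4 mice had 71.4 to 121 TPM. The gap to the next mouse was 0.730 of the whole range, past the limit of Dixon's test for 5 samples on the TPM scale. On log2(TPM + 1), the scale of the tests, it was 0.586 of the range, within that limit. This was 1 of 35 combinations of a gene and a group of 4 or 5 mice that were examined, and chance alone marks about 1 in 20. Both calls that involve CCD, a fall of 5.10 log2 units from CNT and of 6.51 to OMCD, were kept without this mouse.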

How the results depend on the processing

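Of the 77 results on the 7 genes, 23 changed sides of the threshold under at least 1 alternative, 15 by losing a call and 8 by gaining one; 6 of the losses came on leaving out 1 mouse. The count of 50 calls ranged from 40 with a pseudocount of 5 to 52 with a pseudocount of 0.1, from 49 to 52 when 1 mouse was left out, and was 46 under quantile normalization, 46 with only the 2 groups of each comparison and 51 without ATL mice 4 and 6, an alternative chosen after seeing the data. With the mouse number as a replicate block the count was 50. The numbers were not taken to pair the mice, since the labels do not state that they do. Of 290 same-numbered pairs, 19 correlated above 0.1 (median 0.00029), against 30 of 968 other pairs (median 0.00069). The share above 0.1 was larger among same-numbered pairs, so these values do not show that the numbers are unrelated. Calls over all genes in the 11 comparisons numbered 86233, against 36894 with a pseudocount of 5 and 44251 under quantile normalization. Related genes had 359 calls, 220 with a pseudocount of 5, and 353 to 367 without 1 mouse. Quantile normalization turned Ppp1r1a between PTS3 and DTL1 to 0.18 (adjusted p 0.724 by limma) and Muc1 between PTS3 and DTL2 to 0.12 (adjusted p 0.827); it moved the median over all genes by up to 1.35 log2 units, and median ratio rescaling by up to 0.45. After median ratio rescaling over 8136 genes the highest group means were 38849 TPM for Umod, 10865 for Wfdc15b, 2932 for Ppp1r1a, 55481 for Klk1 and 21562 for Spp1. It raised the PTS1 and PTS3 means of all 7 genes by more than 1.5 times, among them Spp1 (8.69 to 14.6 TPM) and Wfdc2 (7.91 to 13.3 TPM) in PTS3. Averaging the pieces of a mouse before the log moved Wfdc15b in DTL2 from 4.27 to 8.59 TPM. By Spearman's rho, 7 of the 21 nearest genes were kept. Levels under a few TPM are the least certain, and shares of TPM move when other genes do.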
